A study of Mus musculus with 6 samples.

Results

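The subject is the breakdown of the branched-chain amino acids (BCAA) leucine, isoleucine and valine, followed through 10 transcripts chosen by gene symbol: Klf15, Bcat2, Bckdha, Bckdhb, Dbt, Ivd, Mccc1, Mccc2, Pcca and Pccb. Each symbol matched a single row among the 27131 rows of the count table, and all 10 were among the 16960 genes abundant enough to be tested. The samples were RNA from the levator ani/bulbocavernosus (LA/BC) muscle, an androgen-sensitive pelvic muscle of the mouse, taken at 14 weeks of age from 3 wild-type mice (WT) and 3 mice labelled 113Q. The 113Q line models SBMA by knock-in; this disorder, spinal and bulbar muscular atrophy, is a neuromuscular disease of men caused by a lengthened glutamine tract in the androgen receptor. All animals were on standard chow with no treatment recorded, each library came from a separate mouse, while the labels name no strain background, litter or batch. The comparison asks how these transcripts differ between 113Q and WT muscle.

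Muscle is a main site of BCAA breakdown. In mitochondria an aminotransferase first removes the amino group, and the branched-chain ketoacid dehydrogenase complex (BCKDH) then carries out the irreversible, regulated step. The leucine branch continues through isovaleryl-CoA dehydrogenase and the biotin enzyme methylcrotonyl-CoA carboxylase, while isoleucine and valine yield propionyl-CoA, which the biotin enzyme propionyl-CoA carboxylase passes towards the citric acid cycle. KLF15 is a glucocorticoid-induced zinc finger transcription factor known in muscle for promoting BCAA breakdown.

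The 4 promoters shown here belong to the alpha and beta subunit genes of the 2 biotin carboxylases. They were chosen because the beta to alpha transcript ratio of each enzyme was lower in every 113Q library than in any WT library. Groups did not overlap in 13 of the 17 ratios compared below. The promoters are RefSeq windows of 300 bases (250 before and 50 after the annotated start, build GRCm38.p6), written along the gene's own strand. Capitals mark 3 motifs on either strand. These are CACCC, a core bound by Krüppel-like factors, then GGGCGG, known as the GC box, and CCAAT, known as the CCAAT box. A match on the other strand appears as its reverse complement.
Pcca, chr14:122534078-122534377, plus strand: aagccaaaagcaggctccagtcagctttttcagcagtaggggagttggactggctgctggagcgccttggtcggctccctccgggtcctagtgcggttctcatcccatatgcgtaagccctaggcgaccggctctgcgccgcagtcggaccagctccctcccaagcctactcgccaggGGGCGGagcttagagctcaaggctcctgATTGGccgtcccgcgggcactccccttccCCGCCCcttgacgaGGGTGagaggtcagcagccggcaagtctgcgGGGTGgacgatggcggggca
Pccb, chr9:101034835-101035134, minus strand: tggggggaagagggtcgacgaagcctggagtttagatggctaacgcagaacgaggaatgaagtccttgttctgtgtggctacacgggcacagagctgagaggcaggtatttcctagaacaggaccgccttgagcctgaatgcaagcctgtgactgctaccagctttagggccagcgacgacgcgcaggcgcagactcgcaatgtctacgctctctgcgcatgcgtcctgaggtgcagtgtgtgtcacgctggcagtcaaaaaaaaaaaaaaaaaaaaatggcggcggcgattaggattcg
Mccc1, chr3:36000629-36000928, minus strand: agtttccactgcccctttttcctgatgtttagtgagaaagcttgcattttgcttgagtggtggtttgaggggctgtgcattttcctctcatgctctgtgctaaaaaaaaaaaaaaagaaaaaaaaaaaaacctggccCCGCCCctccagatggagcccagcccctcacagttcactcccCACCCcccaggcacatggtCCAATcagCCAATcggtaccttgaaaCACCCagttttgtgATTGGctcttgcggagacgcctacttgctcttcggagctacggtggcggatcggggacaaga
Mccc2, chr13:100015590-100015889, minus strand: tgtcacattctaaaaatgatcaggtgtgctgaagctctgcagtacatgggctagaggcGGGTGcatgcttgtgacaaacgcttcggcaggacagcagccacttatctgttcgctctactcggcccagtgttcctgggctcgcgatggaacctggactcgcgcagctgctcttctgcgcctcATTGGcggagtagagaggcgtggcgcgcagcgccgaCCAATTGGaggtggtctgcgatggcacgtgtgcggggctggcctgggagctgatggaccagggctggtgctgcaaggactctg
The Pcca window held 2 CACCC, 2 GC box and 1 CCAAT match, whereas the Pccb window held none of the 3 motifs and had 2 matches to AGAACA, which is not capitalised. Mccc1 had 2 CACCC, 1 GC box and 3 CCAAT matches, and Mccc2 had 1 CACCC and 3 CCAAT matches with no GC box. In Mccc2 a pair of CCAAT matches on opposite strands overlapped, the only overlap among marked matches. RefSeq windows were found for 9 of the 10 members, all but Dbt. CACCC occurred in 7 of these 9 windows and in 57.5% of all 32851 promoters of the same length, the GC box in 4 of 9 and 35.7%, and CCAAT in 6 of 9 and 37.4%. AAGGTCA, the core recognised by oestrogen-related receptors, occurred in 0 of 9 windows and 4.72% of all promoters, and AGAACA, a core of glucocorticoid receptor sites, in 2 of 9 and 19.0%; both strands were searched. Such matches describe the letters of these windows only.

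The libraries held 43581087 to 68983982 estimated counts in WT and 67897870 to 73873481 in 113Q, and single members held between 567 and 15547 counts per library. Levels are CPM, the count scaled to a common library size, after TMM scaling, which centres the bulk of genes. The TMM factors ran from 0.768 to 0.794 in WT and from 1.26 to 1.32 in 113Q, so they followed the groups. With library totals in their place the median over all genes rose by 0.72 (log2), and all 10 members were called higher in 113Q. Changes below are therefore changes relative to the bulk of genes. The 7 myofibre markers were all detected, with a summed level of 136805 to 148747 CPM in WT, against 41862 to 49500 CPM in 113Q, and all 7 fell. In bulk tissue, fewer cells of a type and less RNA per cell cannot be told apart. Epithelial and gland markers summed to 45.3 CPM in WT mouse 2 and to 46.5 and 78.8 CPM in 113Q mice 2 and 3, against 0.893 to 1.48 CPM in the other libraries.

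Of the 10 members, Pcca rose in 113Q, Ivd, Mccc2 and Pccb fell, and 6 did not pass (edgeR quasi-likelihood test, Benjamini-Hochberg adjusted p below 0.05). These 4 calls compare with 34.6% of all tested genes called (16.5% higher and 18.1% lower), so the share is near the background. Every change was modest, between -0.39 and 0.41 on the log2 scale, and the median over the members was -0.10 against 0.01 over all genes tested. The 3 WT and 3 113Q values did not overlap for 6 members, 2 higher and 4 lower, compared with 49.9% of all genes (25.1% higher and 24.8% lower). Replicates were separate mice, 3 per group. The edgeR p-values weigh the group difference against the variation between mice, estimated with information shared over all genes tested.

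**Figure D1:**
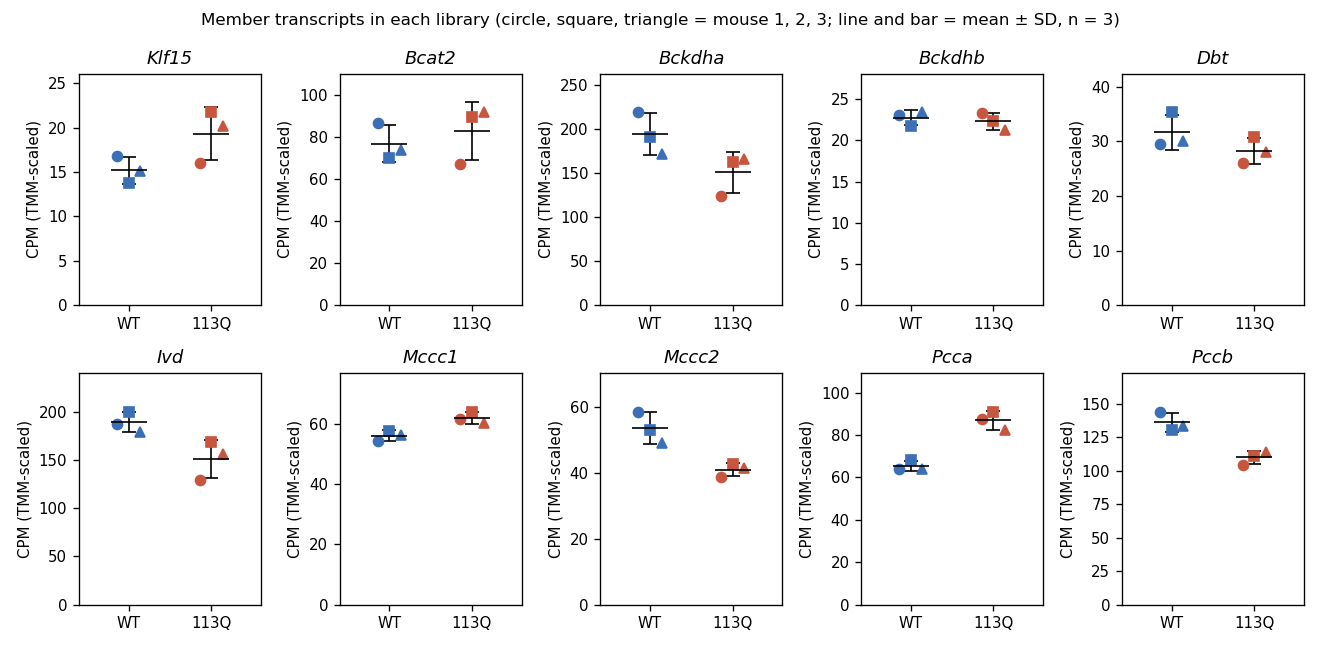
TMM-scaled CPM (vertical axes, from 0) of each member in the 3 WT (blue) and 3 113Q (red) libraries, with mean ± SD. Pcca lies higher in all 3 113Q mice (82.4 to 91.1 CPM against 63.9 to 68.0 in WT), while Pccb, Mccc2, Ivd and Bckdha lie lower.

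Klf15 (chr6:90462576-90475238, plus strand) was the least abundant member per transcript length. It was at 16.8, 13.7 and 15.1 CPM in the WT mice and at 16.0, 21.8 and 20.2 CPM in the 113Q mice. The groups overlapped, because 113Q mouse 1 lay within the WT range while the other two lay above it. Its log2 fold change was 0.35 ± 0.14 (SE, 3 against 3 mice; edgeR adjusted p = 0.0871) and did not pass. Without 113Q mouse 1 it was called higher (0.47, edgeR adjusted p = 0.0249), as it was with limma voom (0.42, adjusted p = 0.0278). The level of 113Q mouse 1, the 113Q library with no Epcam count, was also the lowest of the 113Q values for Bcat2, Bckdha, Ivd, Dbt, Mccc2 and Pccb. In WT the library with epithelial transcripts, mouse 2, had the lowest Klf15, Bcat2 and Pccb levels. Its Bckdha and Mccc2 levels lay between those of the other WT mice, and its Ivd and Dbt levels were the highest. The part of epithelial content in these levels was not tested. In the libraries with Epcam under 1 CPM, where 113Q is mouse 1 alone, the log2 fold change was 0.00 for Klf15 and -0.26 for Bcat2 (edgeR adjusted p = 0.991 and 0.285). In that fit the lone 113Q mouse is assumed to vary like the WT mice.

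Bcat2 (chr7:45570153-45589711, plus strand) encodes the mitochondrial branched-chain aminotransferase, the first step of breakdown in muscle. Its level was 86.8, 70.1 and 74.1 CPM in WT, against 67.3, 89.7 and 92.0 CPM in 113Q. The groups overlapped, and the log2 fold change of 0.11 (95% interval -0.20 to 0.42; edgeR adjusted p = 0.578) did not pass. Bcat1, the cytosolic aminotransferase, was scarce in both groups, at 0.173 to 0.237 CPM in WT, against 0.332 to 0.469 CPM in 113Q. The groups did not overlap, but the difference did not pass (log2 fold change 0.96, edgeR adjusted p = 0.0998). Bcat1 counts were at most 0.00273 of Bcat2 counts in any WT library and 0.00696 in any 113Q library.

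The BCKDH complex is built from E1 alpha (Bckdha), E1 beta (Bckdhb), the E2 core that carries lipoate (Dbt) and the E3 dihydrolipoamide dehydrogenase (Dld), which other dehydrogenases share. Bckdha (chr7:25629946-25658981, minus strand) was at 219, 191 and 172 CPM in WT, against 124, 163 and 167 CPM in 113Q. All 113Q values lay below all WT values, and the log2 fold change of -0.36 ± 0.14 (SE) did not pass (edgeR adjusted p = 0.0713). It passed with DESeq2 (-0.37, adjusted p = 0.0283). It also passed with a term for the libraries with Epcam of at least 1 CPM (-0.44, edgeR adjusted p = 0.0448). 113Q mouse 1 weighed heavily on this value: without it the log2 fold change was -0.23 (edgeR adjusted p = 0.175), and in the libraries with Epcam under 1 CPM, where it is the only 113Q mouse, -0.66 (edgeR adjusted p = 0.0427). Exons of B3gnt8 on the opposite strand cover 61.7% of the Bckdha transcript, and reads of the overlap cannot be assigned without strand. B3gnt8 itself was listed at 2.02 to 2.77 CPM over the 6 libraries.

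Bckdhb (chr9:83925145-84124240, plus strand) was at 23.1, 21.8 and 23.4 CPM in WT, against 23.4, 22.3 and 21.3 CPM in 113Q. These ranges overlapped almost fully, and the log2 fold change was -0.03 with a 95% interval of -0.23 to 0.17 (edgeR adjusted p = 0.833). Dbt (chr3:116513070-116549981, plus strand) was at 29.6, 35.3 and 30.0 CPM in WT, against 26.0, 30.8 and 27.9 CPM in 113Q. These groups also overlapped, with a log2 fold change of -0.17 (95% interval -0.41 to 0.08; edgeR adjusted p = 0.264). Dld, by contrast, fell in 113Q, from 429 to 464 CPM in WT to 238 to 259 CPM in 113Q (log2 fold change -0.85, edgeR adjusted p = 0.000157). With library totals alone the Dld call was lost (-0.13, edgeR adjusted p = 0.208). Dld is also the E3 of the pyruvate and 2-oxoglutarate dehydrogenases.

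The activity of BCKDH is set by phosphorylation of its E1 alpha subunit, which the kinase Bckdk adds and the mitochondrial phosphatase Ppm1k removes. Bckdk was at 267, 282 and 243 CPM in WT, against 123, 141 and 143 CPM in 113Q. No library of either group came near the other group, and Bckdk fell by 0.96 on the log2 scale (SE 0.10, edgeR adjusted p = 0.000203). Ppm1k was at 22.3, 19.98 and 18.7 CPM in WT, against 16.6, 17.4 and 14.5 CPM in 113Q. Its groups did not overlap, and the log2 fold change of -0.33 did not pass (edgeR adjusted p = 0.0529), although it passed with RLE factors (-0.34, adjusted p = 0.049), with DESeq2 (-0.34, adjusted p = 0.0315) and with a filter of 1 CPM (-0.33, adjusted p = 0.0473). Within each library, where no scaling between libraries enters, the Bckdk to Ppm1k count ratio was 12.0, 14.1 and 12.99 in WT and 7.37, 8.10 and 9.86 in 113Q, a difference of -0.63 on the log2 scale. The phosphorylation of the enzyme was not analysed here.

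Ivd (chr2:118861954-118882909, plus strand), the acyl-CoA dehydrogenase of the leucine branch, was at 188, 201 and 179.6 CPM in WT, against 130.0, 169 and 156 CPM in 113Q. All 113Q values lay below all WT values. Ivd fell by 0.32 on the log2 scale (SE 0.11, edgeR adjusted p = 0.0495), a call at the edge of the threshold. It was lost in 11 of the 19 alternatives, 1 of them the threshold of 0.01, and turned to a higher call with library totals alone. It held in the other 7, among them DESeq2 (-0.33, adjusted p = 0.0158) and the Epcam term (-0.40, edgeR adjusted p = 0.01002). Leaving out any single mouse other than 113Q mouse 2 lost it. Without WT mouse 1, 2 or 3 its edgeR adjusted p was 0.093, 0.117 or 0.0739, and without 113Q mouse 1 or 3 it was 0.118 or 0.109. With the mouse number as a block it was 0.0584.

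Methylcrotonyl-CoA carboxylase, the next step of leucine breakdown, joins an alpha subunit that carries biotin (Mccc1) with a beta subunit (Mccc2). Mccc1 (chr3:35959312-36000678, minus strand) was at 54.2, 57.7 and 56.4 CPM in WT, against 61.5, 64.1 and 60.1 CPM in 113Q. The groups did not overlap but the difference was small, with a log2 fold change of 0.14 ± 0.07 (SE, edgeR adjusted p = 0.161), and did not pass. Mccc2 (chr13:99948530-100015639, minus strand) was at 58.5, 53.1 and 49.1 CPM in WT, against 38.6, 42.6 and 41.5 CPM in 113Q. All 113Q values were lower, and Mccc2 fell by 0.39 on the log2 scale (SE 0.09, edgeR adjusted p = 0.0107). The call was lost in the libraries with Epcam under 1 CPM, where 113Q is a single mouse (-0.48, edgeR adjusted p = 0.0737).

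Propionyl-CoA carboxylase is likewise made of a biotin-carrying alpha subunit (Pcca) and a beta subunit (Pccb), and here the subunit transcripts changed in opposite directions relative to the bulk of genes (with library totals alone both were higher). Pcca (chr14:122534324-122891100, plus strand) was at 64.2, 68.0 and 63.9 CPM in WT, against 87.4, 91.1 and 82.4 CPM in 113Q. Each 113Q mouse lay above each WT mouse, and Pcca rose 1.33 times (log2 fold change 0.41 ± 0.08, SE; edgeR adjusted p = 0.00383). This call held in all 19 alternatives, with adjusted p between 1.33e-05 and 0.0497. Pccb (chr9:100982032-101034898, minus strand) was at 144, 131 and 134 CPM in WT, against 104, 111 and 114 CPM in 113Q. Here each 113Q mouse lay below each WT mouse, and Pccb fell by 0.31 on the log2 scale (SE 0.08, edgeR adjusted p = 0.0163). The Pccb call was lost without 113Q mouse 1 (edgeR adjusted p = 0.0531) and without 113Q mouse 2 (0.0578). With the mouse number as a block it was also lost (edgeR adjusted p = 0.0532), as it was in the libraries with Epcam under 1 CPM (0.0864). An exon of Ggact, listed in the table under its older symbol A2ld1, overlaps annotated Pcca exons on the other strand but no base of the principal Pcca transcript. A2ld1 rose from 20.8 to 24.3 CPM in WT to 31.6 to 37.3 CPM in 113Q (log2 fold change 0.56, edgeR adjusted p = 0.00416), and its part in the Pcca counts was not tested.

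**Figure D2:**
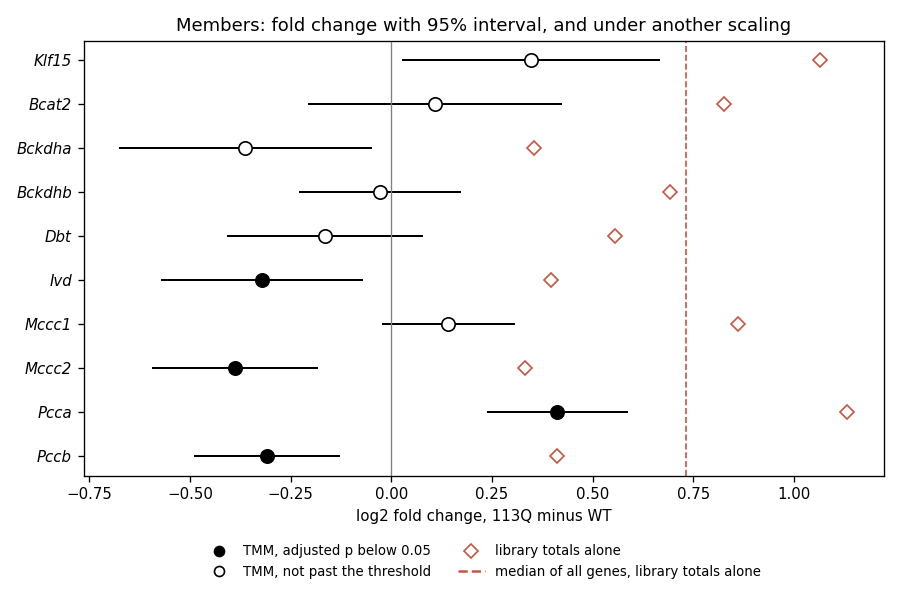
Log2 fold change of each member, 113Q minus WT, with TMM scaling (circles with 95% intervals, filled where the adjusted p is below 0.05) and with library totals alone (diamonds). With library totals all 10 diamonds lie above 0 while the median of all genes (dashed line) lies at 0.73. Each member keeps its place relative to that median, because the scaling shifts all genes nearly alike.

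Measured against the median of all genes, the members' positions were nearly the same under both scalings. That follows from the arithmetic, because a change of factors shifts every gene by nearly the same amount. Pcca lay 0.40 above the median of all genes with TMM and 0.40 above it with library totals, and Mccc2 lay at -0.40 in both. For Pccb these values were -0.32 and -0.32, and for Klf15 they were 0.33 and 0.33. The sign of the uncentred fold change of Bckdha, Bckdhb, Dbt, Ivd, Mccc2 and Pccb therefore depends on the scaling, whereas Klf15, Bcat2, Mccc1 and Pcca were above 0 with both.

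Ratios between transcripts of the same library do not depend on the scaling at all. The Pccb to Pcca count ratio was 2.25, 1.92 and 2.09 in WT and 1.19, 1.22 and 1.39 in 113Q, a log2 difference of -0.72, so that relative to Pcca there was 0.607 times as much Pccb transcript. For Mccc2 to Mccc1 the ratio was 1.08, 0.919 and 0.870 in WT and 0.628, 0.665 and 0.690 in 113Q, a log2 difference of -0.53. In both enzymes the beta subunit was thus lower relative to the biotin-carrying alpha subunit in every 113Q library. The exact two-sided permutation p was 0.1 for each of these ratios, the smallest that 3 against 3 mice allow. After Benjamini-Hochberg adjustment over the 17 ratios compared, this permutation p was 0.131. Groups did not overlap in 13 of the 17 ratios, so such separation was not particular to the biotin carboxylases.

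Within BCKDH the pattern was different. Bckdhb to Bckdha was 0.105, 0.114 and 0.136 in WT and 0.188, 0.137 and 0.128 in 113Q, and the groups overlapped (exact permutation p = 0.2). Dbt to Bckdha was 0.135, 0.185 and 0.174 in WT and 0.209, 0.189 and 0.168 in 113Q, again with overlap (exact permutation p = 0.4). Dld to Bckdha was lower in every 113Q library, at 2.11, 2.27 and 2.49 in WT and 2.08, 1.48 and 1.43 in 113Q (exact permutation p = 0.1). In 113Q mouse 1, whose Bckdha level was the lowest, the Dld ratio lay only just under the WT values.

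**Figure D3:**
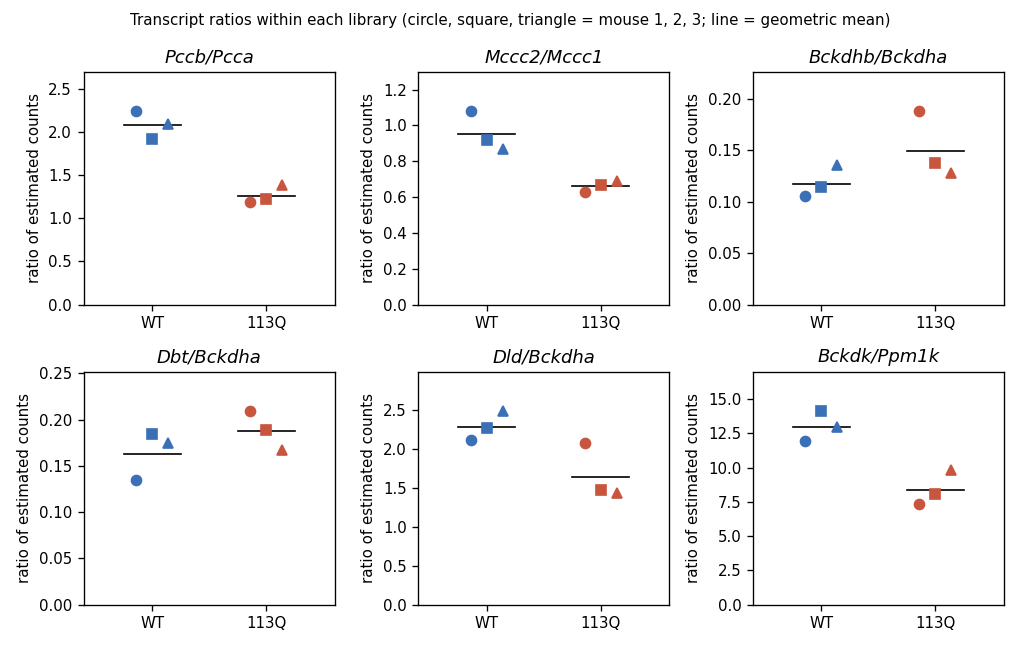
Ratio of the estimated counts of 2 transcripts in each library (vertical axes, from 0, not corrected for transcript length), for WT (blue) and 113Q (red), with the geometric mean as a line. Pccb/Pcca, Mccc2/Mccc1 and Bckdk/Ppm1k are lower in all 113Q libraries, while Bckdhb/Bckdha and Dbt/Bckdha overlap.

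Citrate synthase (Cs), a common reference for mitochondrial content, fell in 113Q (log2 fold change -0.57, edgeR adjusted p = 0.00194). Relative to Cs in the same library, 7 of the 9 mitochondrial members were higher in every 113Q library than in every WT library, compared with 60.3% of all tested genes. Pcca to Cs was 0.0525, 0.0499 and 0.0487 in WT and 0.108, 0.102 and 0.0897 in 113Q, or 1.98 times higher on average. Mccc1 to Cs was 1.64 times and Bcat2 to Cs 1.59 times the WT value. The groups overlapped for Bckdha and Mccc2, whose ratios to Cs were 1.15 and 1.14 times the WT value.

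Divided by the length of the principal transcript, the members spanned more than an order of magnitude in both groups. Per kilobase, WT levels were 102 ± 12.5 CPM for Bckdha (SD, n = 3), 58.7 ± 3.07 for Pccb, 51.7 ± 2.88 for Ivd and 43.5 ± 4.93 for Bcat2. Mccc2 (25.2 ± 2.23), Pcca (25.2 ± 0.903) and Mccc1 (22.9 ± 0.732) came next. The Mccc2 values overlapped those of Pcca and of Mccc1, whereas Pcca lay above Mccc1 without overlap. Below them came Bckdhb (15.5 ± 0.585), Dbt (9.59 ± 0.968) and Klf15 (6.12 ± 0.619). In 113Q the level per kilobase was 33.5 ± 1.68 CPM for Pcca, 25.2 ± 0.814 for Mccc1 and 19.3 ± 0.969 for Mccc2, all apart by more than their spread. Pccb (47.4 ± 2.18), Bcat2 (46.8 ± 7.68) and Ivd (41.4 ± 5.42) lay within their spread of each other, below Bckdha (79.6 ± 12.4). The order of the lowest members, Bckdhb, Dbt and Klf15, was unchanged, with Dbt (8.55 ± 0.727) and Klf15 (7.78 ± 1.21) within their spread. The transcripts that the authors counted for each gene were not given in the labels, so these levels rest on an assumed length.

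Among 22 genes of other steps of BCAA breakdown and of its electron acceptors, 15 fell, 1 rose and 6 did not pass. The isoleucine and valine genes among them act before propionyl-CoA carboxylase. The median log2 fold change of the 22 was -0.37, against 0.01 over all genes tested, of which 18.1% fell and 16.5% rose. The mitochondrial reference genes were lower as well, with log2 fold changes of -1.01 for Vdac1, an outer membrane channel, -0.61 for Tfam, which maintains mitochondrial DNA, and -0.57 for Cs, and their part in these counts was not tested. With library totals alone 1 of the 22 was called lower, Mcee. For the other genes that fell, the direction therefore holds only relative to the bulk of genes. Oxct1, the gene that rose, was higher with library totals too (log2 fold change 1.95). Among 7 genes of leucine's last steps and electron transfer, 5 fell, 1 rose and 1 did not pass. Acat1, the thiolase shared by leucine and isoleucine breakdown, fell from 481 to 548 CPM in WT to 324 to 345 CPM in 113Q (log2 fold change -0.61, edgeR adjusted p = 0.00109). Etfa and Etfb, the subunits of the flavoprotein that takes electrons from Ivd, fell by 0.50 and 0.71. Oxct1, which activates ketone bodies for use as fuel, rose instead, from 63.5, 111 and 82.4 CPM in WT to 204, 189 and 209 CPM in 113Q (log2 fold change 1.23, edgeR adjusted p = 0.00258).

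Of 7 isoleucine and valine genes, 4 fell, 0 rose and 3 did not pass. Acad8, isobutyryl-CoA dehydrogenase of the valine branch, fell by 0.64, Echs1, the short-chain enoyl-CoA hydratase, by 0.68, Hibch, which releases hydroxyisobutyrate, by 0.60 and Hibadh, which oxidises it, by 0.36. All 4 had lower levels in every 113Q mouse than in any WT mouse. Downstream of propionyl-CoA carboxylase, 6 of 8 genes fell and 2 did not pass. Mcee, methylmalonyl-CoA epimerase, directly follows that enzyme and was at 47.0, 43.3 and 44.6 CPM in WT, against 22.7, 24.5 and 23.5 CPM in 113Q. It fell by 0.93 on the log2 scale (SE 0.08, edgeR adjusted p = 9.11e-05), and was lower with library totals alone too (-0.21). Suclg1, a succinyl-CoA ligase subunit, fell by 0.72, and Mmaa and Mmadhc, which handle the cobalamin cofactor, fell by 0.54 and 0.44.

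Among 7 genes of transport and the other aminotransferase, 1 rose, 1 fell and 5 did not pass. Slc7a5, the catalytic chain of the large neutral amino acid exchanger that carries leucine across the cell membrane, was at 2.64, 4.59 and 2.79 CPM in WT, against 11.4, 13.9 and 18.2 CPM in 113Q. The groups lay far apart, and Slc7a5 rose by 2.11 on the log2 scale (SE 0.26, edgeR adjusted p = 0.000735), with values from 1.93 to 2.83 over the alternatives. Its partner chain Slc3a2, chosen after its values were seen, overlapped between groups (log2 fold change 0.11, edgeR adjusted p = 0.592). Slc7a8, another carrier of this family, fell by 0.67 (edgeR adjusted p = 0.0157). The Slc7a8 call was lost without WT mouse 1 or 3 or 113Q mouse 3 (adjusted p = 0.0502, 0.0546 and 0.0537), and with library totals alone its log2 fold change was 0.04. Of 6 genes of biotin handling and other biotin carboxylases, 1 rose and 5 did not pass. That gene, Hlcs, attaches biotin to carboxylases and rose by 0.33 (edgeR adjusted p = 0.042), a call lost in 9 of 19 alternatives, with adjusted p up to 0.645.

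**Figure D4:**
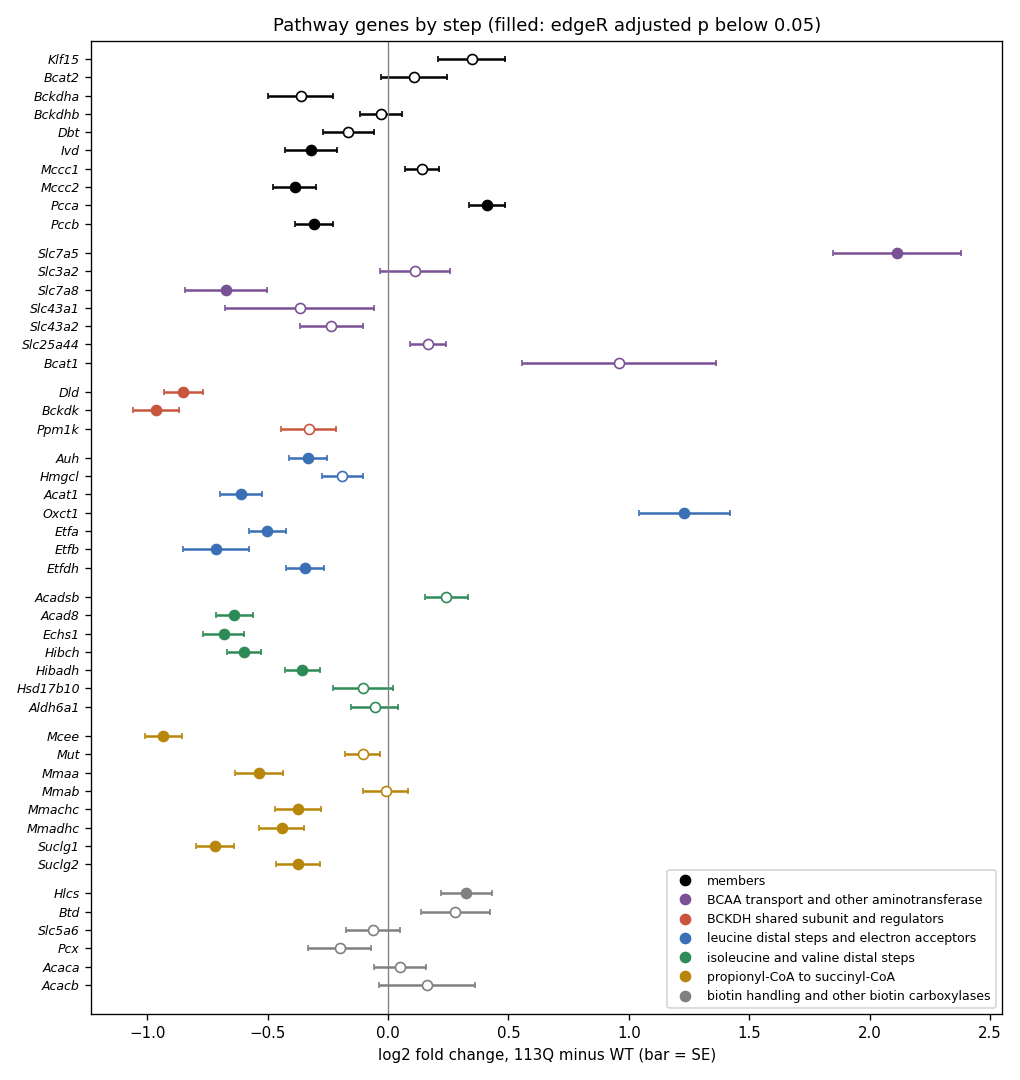
Log2 fold change, 113Q minus WT, with SE (horizontal axis) of the members and of the other pathway genes, coloured by list and filled where the edgeR adjusted p is below 0.05. Members scatter between -0.39 and 0.41, most genes of the other breakdown steps lie below 0, and Slc7a5 (2.11) and Oxct1 (1.23) lie far to the right.

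Other cell types also contributed RNA, and their markers were set beside these results. The 8 adipocyte markers summed to 432, 211 and 688 CPM in WT, against 218, 348 and 426 CPM in 113Q, with 1 of 8 higher (Cidea, 1.45 to 3.87 CPM in WT, against 8.19 to 12.5 CPM in 113Q) and 1 lower. Adipoq, made by fat cells, was at 18.4, 2.59 and 49.7 CPM in WT, against 10.3, 21.0 and 26.6 CPM in 113Q, and these groups overlapped. The 7 smooth muscle markers summed to 6662 to 7059 CPM in WT, against 6084 to 6904 CPM in 113Q, and these sums overlapped. Most of each sum was Des, also on the myofibre list, which fell (log2 fold change -0.43, edgeR adjusted p = 0.0114). The 6 markers other than Des summed to 354 to 798 CPM in WT, against 1306 to 2799 CPM in 113Q. Among them only Acta2 passed, as higher (edgeR adjusted p = 0.037). The 5 endothelial markers all fell, with a sum of 285 to 374 CPM in WT, against 199.5 to 202 CPM in 113Q. Sums of 6 macrophage markers (32.9 to 54.0 CPM in WT, 39.2 to 50.2 in 113Q) and of 5 fibroblast markers (689 to 1346 and 1108 to 1477) overlapped between the groups. The part of these cell types in the members' values was not tested. In the libraries with Epcam under 1 CPM the log2 fold change of Pcca was 0.45 (edgeR adjusted p = 0.0497), and over all alternatives other than library totals it lay between 0.38 and 0.46.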

How the data were processed

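RNA of LA/BC muscle, made into TruSeq mRNA libraries according to the labels, was sequenced from 3 WT and 3 113Q mice. The authors deposited a table of estimated counts per gene, made with Cuffdiff 2.1.1 after TopHat2 2.0.9 and Bowtie2 2.1.0 on mm10, per the submitters' processing notes. The gene models and the strandedness of counting: not given in the sources used here. Between 5.38% and 5.96% of values per library were fractional and were rounded.

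All rows were fitted with edgeR 4.0.16 (R 4.3.3): filterByExpr with a minimum count of 10, TMM factors, robust quasi-likelihood F test, two-sided, Benjamini-Hochberg adjustment over 16960 genes. SE is the log2 fold change over the square root of F, and 95% intervals are unadjusted. The common biological coefficient of variation was 24.2%. The test was also run on simulated counts with 200 changed genes, which says nothing on the scaling between the groups. Ratios used exact permutation over libraries.

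Members and lists were chosen with earlier results of these data known. Named genes are all members, Bcat1, Dld, Bckdk, Ppm1k, Cs, and up to 4 called genes per list with the smallest p; Epcam, Adipoq, Cidea and Acta2 stand for their marker lists; A2ld1, Slc3a2 and Fkbp5 were chosen after their values were seen. Lengths, coordinates and overlaps come from GENCODE M21 (GRCm38, the assembly of mm10), promoters from RefSeq. Alternatives were DESeq2 1.42.0, limma 3.58.1 voom, other factors, filters, thresholds, each mouse left out, a replicate block and Epcam-based fits. The labels do not say whether mouse numbers pair the groups, and the main fit treated the mice as unpaired. Reads and protein were not analysed here, and 1 gene that the naming rule selects is not reported here.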

Additional observations from a re-analysis of the deposited data

How the results depend on the processing

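Library totals in place of TMM factors moved most values. Genes called became 11015 higher and 710 lower, against 2791 and 3078, and members 10 higher and 0 lower, against 1 and 3. The log2 fold change turned positive for Bckdha (0.36), Bckdhb (0.69), Dbt (0.55), Ivd (0.40), Mccc2 (0.33), Pccb (0.41), Ppm1k (0.39), Cs (0.15), Slc7a8 (0.042), Acat1 (0.11), Etfa (0.22), Etfb (0.00506), Acad8 (0.080), Hibch (0.12), Echs1 (0.037), Hibadh (0.36), Suclg1 (0.00239), Mmaa (0.18), Mmadhc (0.28), Got1 (0.24), Klf9 (0.067), Klf13 (0.12) and Tfam (0.12). Calls higher and lower became 5 and 0 for transport, 1 and 1 for the BCKDH regulators, 5 and 0 for the leucine list, 4 and 0 for isoleucine and valine, and 5 and 1 after propionyl-CoA. At an adjusted p below 0.01, fewer calls follow by construction: 1462 genes higher and 1962 lower, 0 members lower, 0 transport genes lower and 3 leucine genes lower. In the libraries with Epcam under 1 CPM, with fewer samples, 1300 genes were higher and 1827 lower, and the leucine and propionyl-CoA lists each had 3 lower. Bcat2 turned to -0.26 there. Bckdhb, at -0.03 with TMM factors, turned to 0.015 with upper-quartile factors, ranged from -0.059 to 0.012 with single mice left out (above 0 without 113Q mouse 3), and turned to 0.00386 with the Epcam term and to 0.0049 in the libraries with Epcam under 1 CPM. Limma voom called 2 members higher, and DESeq2 and upper-quartile factors each called 1 isoleucine or valine gene higher; the cause was not tested. Of 228 counts of the other lists, 37 moved by over 1.5 times, 10 of them with library totals.

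Leaving out each mouse gave 1 to 2 members higher and 1 to 2 lower, 2004 to 2559 genes higher and 2312 to 2843 lower, 0 to 3 transport genes lower and 3 to 5 leucine genes lower. Without 113Q mouse 1, 2 members were higher (Pcca and Klf15) and 1 lower (Mccc2).

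With the mouse number as a replicate block, 1 member was higher and 1 lower, with 2154 genes higher and 2583 lower. Deviations of same-numbered mice correlated at 0.20, 0.24 and -0.27, and those of differently numbered mice at -0.44 to 0.38. With 3 mice per group these values cannot decide whether the numbers pair the mice. All 119 alternatives of the 17 ratios stayed within the spread between mice. Leaving out 1 of 3 mice cannot move a group mean beyond that spread, so this outcome was fixed for those settings. With 3 mice per group no ratio can reach an exact p below 0.1. Depth was not limiting for the members, which held at least 567 counts, but Bcat1 was at 0.173 to 0.469 CPM.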

Other observations

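The counts here stand against 34.6% of all tested genes called, 16.5% higher and 18.1% lower. Of 13 genes of the pyruvate and 2-oxoglutarate dehydrogenases and their regulators, 7 fell, 2 rose and 4 did not pass (edgeR, median log2 fold change -0.50). Pdp1, the phosphatase that activates pyruvate dehydrogenase, fell from 128, 146 and 146 CPM in WT to 40.6, 41.7 and 38.2 CPM in 113Q (log2 fold change -1.80, edgeR adjusted p = 9.7e-06). Pdhx and Pdha1, subunits of that complex, fell by 0.78 and 0.77, and the kinase Pdk2 by 1.03. Of 9 genes that handle alanine, aspartate, glutamate, glutamine and proline, 5 fell, 0 rose and 4 did not pass. Gpt2, the mitochondrial alanine aminotransferase, was at 215, 232 and 196 CPM in WT, against 77.8, 78.6 and 81.5 CPM in 113Q, and fell by 1.43. Prodh, the first enzyme of proline breakdown, fell by 1.37 and the aspartate aminotransferase Got1 by 0.48.

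Of 14 tested Krüppel-like factors other than Klf15, 3 rose, 2 fell and 9 did not pass, a share close to that of all genes. Klf9 and Klf13 fell by 0.65 and 0.60, while Klf8 and Klf16 rose by 1.10 and 0.58. The Klf16 call was lost in 7 of 19 alternatives, with adjusted p up to 0.305, and the Klf8 call in 1 (adjusted p = 0.0623). The Foxo3 call below was lost in 1 (adjusted p = 0.14). Of 13 genes of the glucocorticoid receptor and its responsive genes, 5 fell, 2 rose and 6 did not pass. The receptor Nr3c1 rose by 0.53 and Foxo3 by 0.68, whereas Zbtb16 and Sgk1 fell by 1.58 and 1.80. Fkbp5, a chaperone induced by glucocorticoids and androgens and chosen after its values were seen, was at 125, 340 and 137 CPM in WT, against 24.3, 28.5 and 31.2 CPM in 113Q (log2 fold change -2.84, edgeR adjusted p = 0.00815). These directions are relative to the bulk of genes: with library totals alone Got1, Klf9 and Klf13 had log2 fold changes above 0. The Pdhx and Pdha1 calls were lost with library totals alone (-0.06 and -0.05, edgeR adjusted p = 0.439 and 0.656).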
